A study of Mus musculus with 131 samples.

Results

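The distal end of mouse chromosome 7 carries a chain of imprinted genes that runs from H19 and Igf2 to Kcnq1ot1 and Cdkn1c. DNA methylation was described here in the windows of 200 bp on chr7:142540000-143520000 (mm10) that held a covered CpG in all 3 bisulfite libraries of the series. These were 3176 windows out of 4900 on the grid of the interval and out of 7638465 such windows in the genome. The windows were chosen by position and coverage alone, and no methylation level entered the choice. The libraries came from an Actin-RFP embryonic stem cell (ESC) line at passage 10, which carries an Actin-RFP transgene, from a Gjb2-35delG ESC line at passage 7, which is homozygous for a deletion in a gap junction gene, and from wild-type mouse embryonic fibroblasts (MEF) at passage 2. All 3 were of strain C57BL/6J. The series, with 131 samples in all, concerns ESCs injected into host embryos, and its RFP and GFP cells of E4.0 blastocysts gave the expression values further down. Each kind of cell had 1 library, so line, genotype and passage cannot be told apart, no difference between libraries was tested, and every interval covers counting error only.

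Imprinted genes are expressed from only 1 parental copy, and the choice is set by control regions that carry DNA methylation on only 1 of the parental chromosomes. A bulk measurement of such a region mixes both copies and reads near 50%. In the mouse, the control region upstream of H19 is methylated on the paternal copy, where it keeps the insulator protein CTCF away and lets enhancers reach Igf2. The promoter of the long noncoding RNA Kcnq1ot1 is methylated on the maternal copy, and the RNA made from the unmethylated paternal copy silences Cdkn1c and its neighbours. The windows carry no information on the parental copy, so a level near 50% was read here only as a level.

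Promoter sequences are shown for starts at different levels: the Kcnq1ot1 promoter near the middle of the scale in MEF, a heavily methylated and a weakly methylated start of Igf2, and the weakly methylated promoter of Phlda2, an imprinted growth inhibitor of the placenta. They are RefSeq sequences of GRCm38.p6, the assembly of mm10, from 250 bases before to 50 bases after a start, on the minus strand, 5′ to 3′. Capitals mark each CpG, the cytosines that the bisulfite libraries read. The Kcnq1ot1 sequence (chr7:143296498-143296797) held 9 CpGs, the outermost Igf2 start (chr7:142666767-142667066) held 2, the second Igf2 start (chr7:142661222-142661521) held 14 and Phlda2 (chr7:143502475-143502774) held 26, where the median of 32817 promoters was 7.
Kcnq1ot1: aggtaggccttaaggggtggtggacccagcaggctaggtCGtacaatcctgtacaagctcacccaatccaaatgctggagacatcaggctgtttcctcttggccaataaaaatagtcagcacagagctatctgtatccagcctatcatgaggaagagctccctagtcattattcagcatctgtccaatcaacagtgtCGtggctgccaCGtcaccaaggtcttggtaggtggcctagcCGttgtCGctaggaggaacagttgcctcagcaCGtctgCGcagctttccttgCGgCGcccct
Igf2 outermost start: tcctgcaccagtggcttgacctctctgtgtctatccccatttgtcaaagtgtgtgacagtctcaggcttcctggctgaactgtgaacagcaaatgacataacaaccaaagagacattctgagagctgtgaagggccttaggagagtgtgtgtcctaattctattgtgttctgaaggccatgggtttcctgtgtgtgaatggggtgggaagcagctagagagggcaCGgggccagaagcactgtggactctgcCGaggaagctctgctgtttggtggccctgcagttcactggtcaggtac
Igf2 second start: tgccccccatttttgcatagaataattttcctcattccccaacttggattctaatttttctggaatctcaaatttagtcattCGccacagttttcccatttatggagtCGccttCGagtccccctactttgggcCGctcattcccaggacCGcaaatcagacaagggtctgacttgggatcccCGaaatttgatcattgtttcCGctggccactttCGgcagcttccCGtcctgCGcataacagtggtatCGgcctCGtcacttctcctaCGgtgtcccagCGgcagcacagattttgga
Phlda2: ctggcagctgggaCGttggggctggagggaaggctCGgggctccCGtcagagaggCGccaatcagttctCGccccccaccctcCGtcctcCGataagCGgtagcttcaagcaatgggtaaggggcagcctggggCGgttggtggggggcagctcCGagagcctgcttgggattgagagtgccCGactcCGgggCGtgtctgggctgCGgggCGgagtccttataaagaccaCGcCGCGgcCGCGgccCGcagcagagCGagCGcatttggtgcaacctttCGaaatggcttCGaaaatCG
In the windows over the Kcnq1ot1 sequence, methylation was 27.5% in Actin-RFP ESCs, 43.9% in Gjb2-35delG ESCs and 38.9% in MEF. The outermost Igf2 start, with few CpGs, was at 69.3%, 85.7% and 66.9% in Actin-RFP ESCs, Gjb2-35delG ESCs and MEF. The CpG-rich Phlda2 sequence was at 2.85%, 1.32% and 3.99% in the same order, near 0 in all 3 libraries.

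Both strands were searched for 2 motifs. The core of the CTCF sites at the H19 control region was found in 0 of the 4 sequences and in 0.0427% of all promoters of the same length. None of the 4 sequences lies in that control region, whose own sequence was not available and was not searched. With so rare a motif, the 0 of 4 says nothing about the CTCF sites upstream of H19. The motif TGCCGC, which the imprint-protecting protein ZFP57 binds when it is methylated, was found once, at the second Igf2 start, and in 11.6% of all promoters.

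Across the domain, the levels kept the order of the genome as a whole. The mean was 39.6% ± 19.5 in Actin-RFP ESCs, 65.2% ± 21.7 in Gjb2-35delG ESCs and 74.7% ± 22.1 in MEF (SD between 3176 windows). Windows of the rest of the series averaged 38.5%, 67.6% and 79.1% in the same libraries, so the domain lay within 5 points of the genome in each. Libraries held 319285707 calls in Actin-RFP ESCs, 287946900 in Gjb2-35delG ESCs and 316759867 in MEF. The cell labels were set against gene starts: Pou5f1, Nanog, Zfp42 and Tdgf1, which are active in pluripotent cells, were at most at 4.52% in both ESC lines and at 41.8% to 70.7% in MEF. Esrrb was the exception among the 5 pluripotency genes measured, at 32.7% in Actin-RFP ESCs, 73.5% in Gjb2-35delG ESCs and 55.5% in MEF. Among 4 fibroblast genes measured, Col1a2 and Twist1 were lowest in MEF, while Col6a2 was lowest in Actin-RFP ESCs, and Prrx1 was at 4.17% in Gjb2-35delG ESCs and 4.21% in MEF.

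A window was called intermediate when it lay at 35 to 65%. In Actin-RFP ESCs 1580 domain windows (49.7%) were intermediate, where 47.4% of all windows in the genome were. In Gjb2-35delG ESCs 888 domain windows (28%) were, against a genome share of 27.4%, and in MEF 533 (16.8%) were, against 12.6%. An intermediate level was therefore frequent over the whole Actin-RFP library and infrequent in MEF. Of the 533 windows that were intermediate in MEF, 203 (38.1%) were also intermediate in Actin-RFP ESCs and 217 (40.7%) in Gjb2-35delG ESCs, with genome shares of 31.3% and 42.6%. Windows intermediate in all 3 libraries numbered 65 (2.05%), where the genome share was 1.17%, and 62 of them lay outside the 4 loci described below. The 533 windows intermediate in MEF averaged 31.9% in Actin-RFP ESCs, 57.0% in Gjb2-35delG ESCs and 53.2% in MEF.

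**Figure D1:**
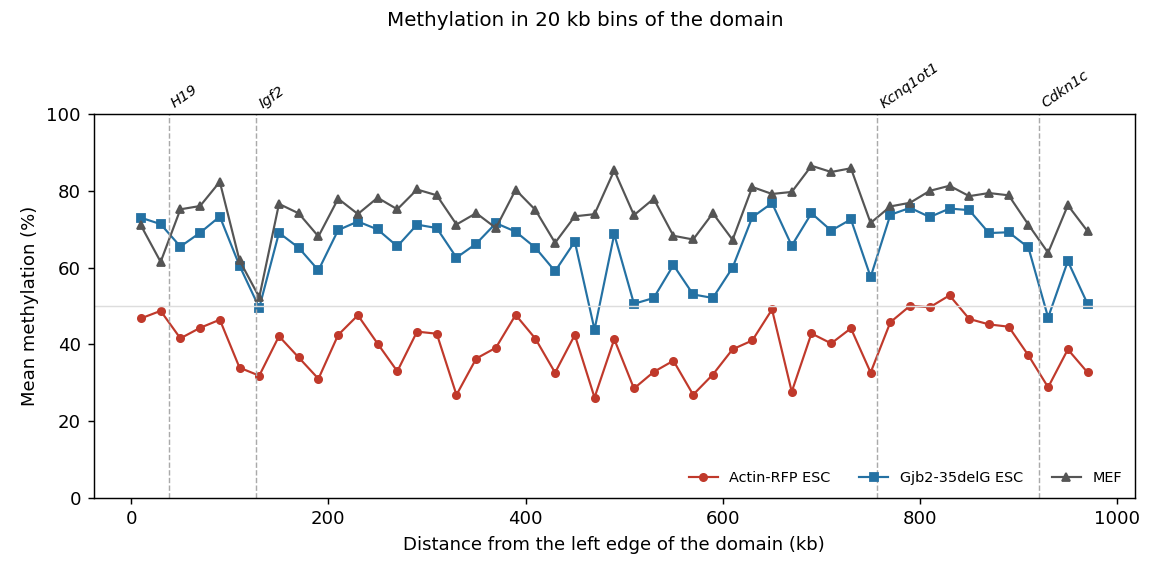
Mean methylation (%, vertical axis) of the covered windows in 49 bins of 20 kb along the domain (horizontal axis, kb from its left edge) in Actin-RFP ESCs (red circles), Gjb2-35delG ESCs (blue squares) and MEF (grey triangles). Dashed lines mark the 4 genes, and the red line lies below the other 2 in all 49 bins.

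Large downward differences were less common in the domain than in the genome, and upward ones were few in both. Actin-RFP ESCs lay 30 points or more below MEF in 1936 domain windows (61.0%), where the genome share was 71.3%, and 30 points or more above MEF in 13 (0.409%, genome share 0.279%). Gjb2-35delG ESCs lay that far below MEF in 409 windows (12.9%), with a genome share of 14.4%, and that far above MEF in 106 (3.34%), with a genome share of 2.58%. Between the lines, Actin-RFP ESCs lay that far below Gjb2-35delG ESCs in 1282 windows (40.4%), where the genome share was 48.4%, and that far above them in 5 (0.157%, genome share 0.143%). In bins of 20 kb, Actin-RFP ESCs were at 26.1% to 52.8% with a median of 41%, Gjb2-35delG ESCs at 43.8% to 76.9% with a median of 68.7%, and MEF at 52.3% to 86.6% with a median of 75.2%. Actin-RFP ESCs were below both other libraries in all 49 bins, and Gjb2-35delG ESCs were below MEF in 46. This is also the order of the genome means, and bin counts for the genome are not given here. The plot of bins along the domain shows the lowest bin of both ESC lines at chr7:143000001-143020000, which contains the start of Tspan32, a tetraspanin gene, and the lowest MEF bin over Igf2, at chr7:142660001-142680000.

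**Figure D2:**
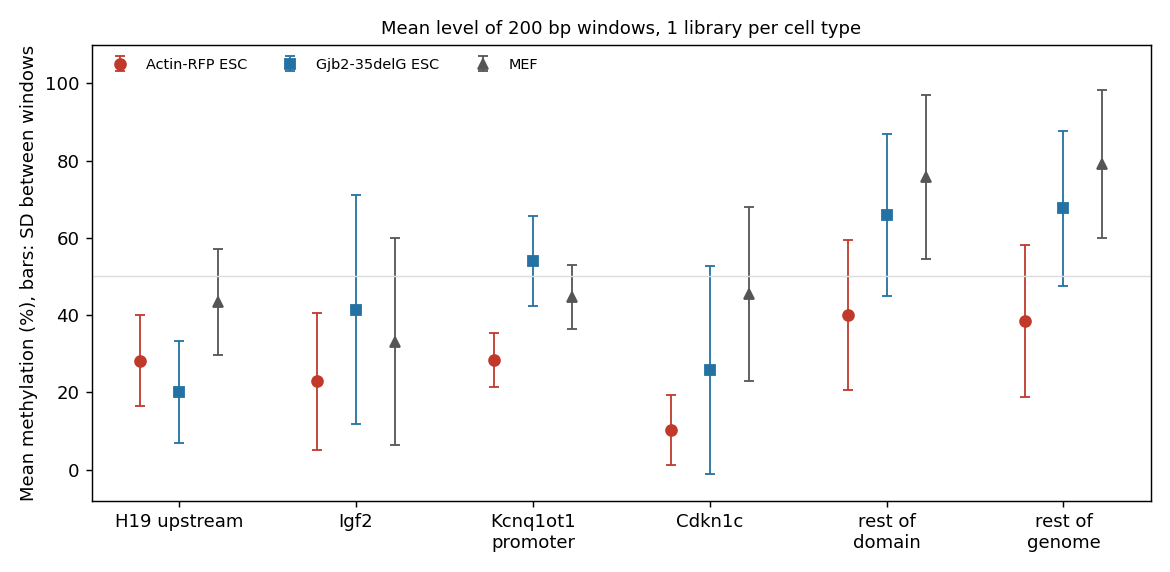
Mean methylation (%, vertical axis) of the windows covered in all 3 libraries at the 4 loci, in the rest of the domain and in the rest of the genome, for Actin-RFP ESCs (red), Gjb2-35delG ESCs (blue) and MEF (grey), with bars of 1 SD between windows, which can run below 0. MEF lies at 43.4% to 45.6% at H19 upstream, Kcnq1ot1 and Cdkn1c, and only Gjb2-35delG ESCs at Kcnq1ot1 lie within 5 points of 50% among the ESC values.

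Upstream of H19, neither ESC line was near the MEF level. H19 is a long noncoding RNA gene expressed from the maternal copy, and the stretch from 2000 to 4000 bp upstream of its start (chr7:142580147-142582146) is where its control region lies in the mouse. Over the 7 of 10 windows covered in all 3 libraries, the mean was 28.3% ± 11.8 in Actin-RFP ESCs, 20.0% ± 13.2 in Gjb2-35delG ESCs and 43.4% ± 13.8 in MEF (SD between windows). Pooled over calls, the level was 31.1% in Actin-RFP ESCs (95% Wilson interval 28% to 34.4%), 24% in Gjb2-35delG ESCs (18.9% to 29.99%) and 41.7% in MEF (38.1% to 45.3%). The pooled difference from MEF was -10.5 points in Actin-RFP ESCs (Newcombe interval, built from the Wilson bounds of both libraries, -15.3 to -5.70) and -17.7 points in Gjb2-35delG ESCs (-24.0 to -10.7).

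The Gjb2-35delG value rests on thin coverage. That library covered 39 of 120 CpG cytosines of the stretch (both strands counted) with 225 calls, where Actin-RFP ESCs covered 120 with 1294 calls and MEF covered 114 with 1067 calls. No window was covered in Gjb2-35delG ESCs at chr7:142580201-142580600, the nearer end of the stretch, or at chr7:142581801-142582000. The part of this coverage in its low level was not tested.

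Window by window, the order of the libraries changed along the stretch. At chr7:142581201-142581400, which had the highest MEF level, methylation was 18.9% in Actin-RFP ESCs (54 calls), 0% in Gjb2-35delG ESCs (5 calls) and 62.2% in MEF (54 calls). The next window towards H19, chr7:142581001-142581200, was at 20.4% in Actin-RFP ESCs, 19.2% in Gjb2-35delG ESCs and 51.5% in MEF. The window chr7:142581401-142581600 was at 19.7%, 8.33% and 38.6% in Actin-RFP ESCs, Gjb2-35delG ESCs and MEF. In each of these 3 windows both ESC lines lay far below MEF. The window chr7:142581601-142581800 was at 30.3% in Actin-RFP ESCs, 16.4% in Gjb2-35delG ESCs and 38% in MEF. The farthest window, chr7:142582001-142582200, was at 21.5% in Actin-RFP ESCs, 36.9% in Gjb2-35delG ESCs and 57.3% in MEF. The window between them, chr7:142581801-142582000, was at 35.8% in Actin-RFP ESCs and 51.4% in MEF. Nearer to H19 the order turned in 2 windows, where both ESC lines lay above MEF. Of these, chr7:142580801-142581000 was at 50.6% in Actin-RFP ESCs, 33.3% in Gjb2-35delG ESCs and 31.1% in MEF. The window chr7:142580601-142580800 was at 36.4% in Actin-RFP ESCs, 25.9% in Gjb2-35delG ESCs and 25.4% in MEF. In the last 2 windows, chr7:142580401-142580600 and chr7:142580201-142580400, Actin-RFP ESCs were again below MEF. They were at 26.7% and 26.3% there, and MEF was at 32.4% in both.

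**Figure D3:**
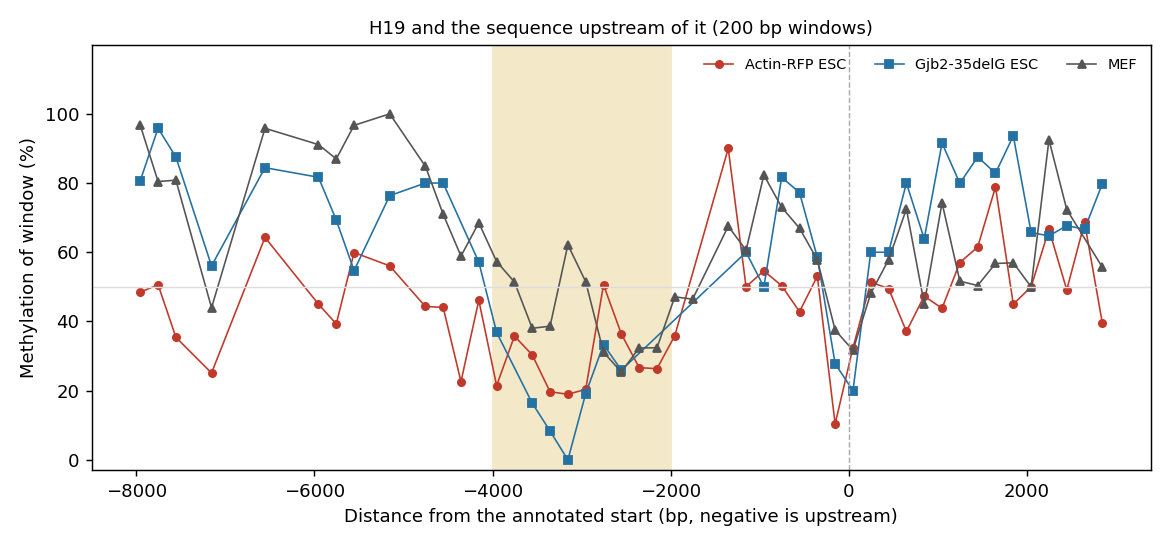
Methylation (%, vertical axis) of each window of 200 bp from 8000 bp upstream of the H19 start into the gene (horizontal axis, bp from the annotated start, which is the dashed line), in Actin-RFP ESCs (red), Gjb2-35delG ESCs (blue) and MEF (grey). The shaded stretch is 2000 to 4000 bp upstream, lines join covered windows across gaps, and both ESC lines lie below MEF in its left part.

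Of the 7 windows of the stretch, 2 were intermediate in Actin-RFP ESCs (genome share 47.4%), 1 in Gjb2-35delG ESCs (27.4%) and 5 in MEF (12.6%). Of the 5 windows that were intermediate in MEF, 0 were intermediate in Actin-RFP ESCs (genome share 31.3%) and 1 in Gjb2-35delG ESCs (genome share 42.6%). All 5 were below 35% in Actin-RFP ESCs (genome share 65.7%), and 4 of 5 were below 35% in Gjb2-35delG ESCs (genome share 14.7%). Relative to the rest of the domain outside the 4 loci, which averaged 40.1%, 65.9% and 75.7%, the stretch was 11.8 points lower in Actin-RFP ESCs, 45.9 points lower in Gjb2-35delG ESCs and 32.3 points lower in MEF. In all 3 libraries the stretch thus stood as a dip, the deepest of them in Gjb2-35delG ESCs. The flank from 4000 to 14000 bp upstream was at 44.9% in Actin-RFP ESCs, 72.0% in Gjb2-35delG ESCs and 81.5% in MEF, and the 2000 bp next to the start at 43.5%, 59.2% and 63.0%. In the H19 gene itself (13 windows) Gjb2-35delG ESCs were above MEF, with 51.5% ± 12.3 in Actin-RFP ESCs, 70.6% ± 19.3 in Gjb2-35delG ESCs and 58.5% ± 15.8 in MEF (SD between windows).

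At Igf2, the fetal growth factor gene expressed from the paternal copy, the level depended on the place within the gene more than on the library. Over the whole gene (chr7:142650768-142666816, 53 of 80 windows covered in all) the mean was 22.8% ± 17.7 in Actin-RFP ESCs, 41.4% ± 29.7 in Gjb2-35delG ESCs and 33.2% ± 26.8 in MEF (SD between windows). Pooled over calls, the level was 19.7% in Actin-RFP ESCs (Wilson interval 18.2% to 21.3%), 33.5% in Gjb2-35delG ESCs (31.5% to 35.6%) and 26.9% in MEF (25.2% to 28.7%). Gjb2-35delG ESCs were thus 6.58 points above MEF (Newcombe interval 3.84 to 9.31) and Actin-RFP ESCs were below it (-7.19 points, -9.53 to -4.85).

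RefSeq gives 4 starts for Igf2. Around the outermost start (1000 bp upstream to 500 bp downstream, 3 windows) the levels were high, at 76.5% in Actin-RFP ESCs, 89.8% in Gjb2-35delG ESCs and 87.3% in MEF. Around the second start (5 windows), which includes the CpG-rich sequence shown above, they were low, at 13.4% in Actin-RFP ESCs, 17.2% in Gjb2-35delG ESCs and 9.91% in MEF. The third start had no window covered in all 3 libraries. Around the innermost start (3 windows) the levels were 38.5% in Actin-RFP ESCs, 61.7% in Gjb2-35delG ESCs and 34.2% in MEF. These rest on few calls, with 122 in Actin-RFP ESCs, 75 in Gjb2-35delG ESCs and 41 in MEF.

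**Figure D4:**
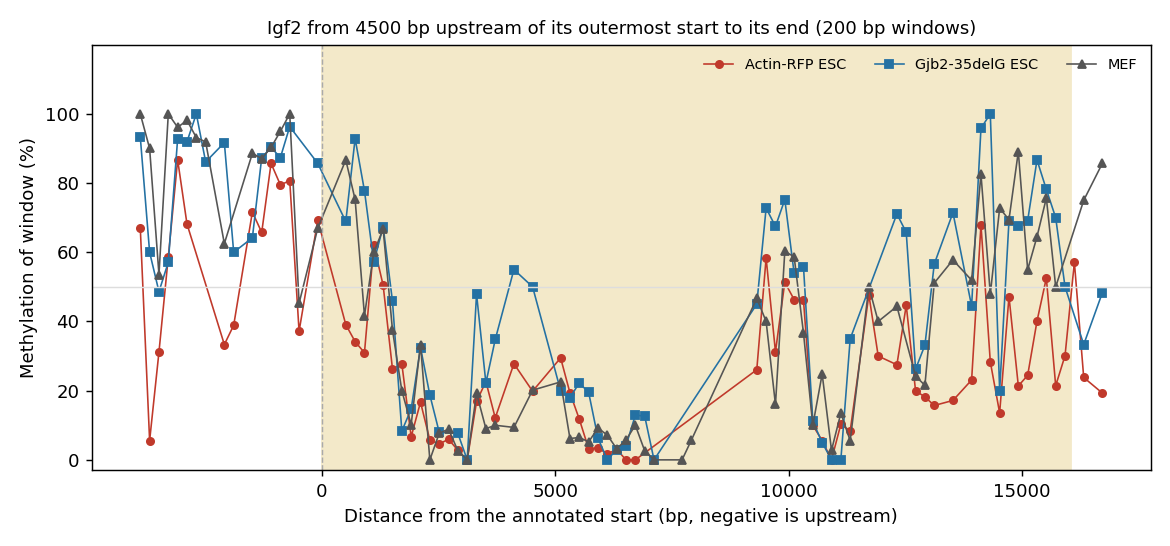
Methylation (%, vertical axis) of each window of 200 bp along Igf2 (shaded; horizontal axis, bp from its outermost start, which is the dashed line) in Actin-RFP ESCs (red), Gjb2-35delG ESCs (blue) and MEF (grey). All 3 lines are high upstream of the start, low around the second start and higher again towards its end.

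From the innermost start to the end of the gene (25 windows) the mean was 28.2% in Actin-RFP ESCs, 53.4% in Gjb2-35delG ESCs and 45% in MEF. From the outermost to the innermost start (28 windows) it was 18%, 30.7% and 22.6% in the same libraries. So the mean of the downstream part of Igf2 was closer to 50% than that of the upstream part in each library. The Gjb2-35delG mean was within 5 points of 50% there, but its windows ran from 0% to 100% with a median of 67.5%. Only 5 of these 25 windows (20%) were intermediate in Gjb2-35delG ESCs, where the genome share was 27.4%. These 2 stretches were chosen after their values had been seen. The highest window of the gene was at 67.9% in Actin-RFP ESCs (chr7:142652601-142652800, 21 calls), at 100% in Gjb2-35delG ESCs (chr7:142652401-142652600, 5 calls) and at 89.1% in MEF (chr7:142651801-142652000, 37 calls). Each library also had windows at 0%, such as chr7:142663601-142663800, which was at 0% in all 3.

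Windows below 20% numbered 27 of 53 in Actin-RFP ESCs, 17 in Gjb2-35delG ESCs and 22 in MEF, where genome shares were 18.7%, 4.2% and 2.34%. Of the 16 windows of Igf2 that were intermediate in MEF, 6 (37.5%) were also intermediate in Actin-RFP ESCs, where the genome share was 31.3%, and 7 (43.8%) in Gjb2-35delG ESCs, where it was 42.6%. The other 9 in Gjb2-35delG ESCs lay above 65%, where the genome share was 42.7%, and the other 10 in Actin-RFP ESCs (62.5%) lay below 35%, near the genome share of 65.7%. Ins2, an insulin gene next to Igf2, was at 39% in Actin-RFP ESCs, 69.4% in Gjb2-35delG ESCs and 83.5% in MEF over its 4 windows.

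At the Kcnq1ot1 promoter, Gjb2-35delG ESCs were near 50% and Actin-RFP ESCs were not. The promoter, taken from 500 bp upstream to 1500 bp downstream of the start (chr7:143295047-143297047), was covered in 10 of 10 windows. The mean was 28.4% ± 6.9 in Actin-RFP ESCs, 54% ± 11.8 in Gjb2-35delG ESCs and 44.8% ± 8.3 in MEF (SD between 10 windows). Pooled over 1853, 1450 and 1130 calls, the level was 28% in Actin-RFP ESCs (Wilson interval 26% to 30.04%), 54.3% in Gjb2-35delG ESCs (51.8% to 56.9%) and 46.5% in MEF (43.6% to 49.4%). The pooled difference from MEF was -18.5 points in Actin-RFP ESCs (Newcombe interval -22.0 to -14.9) and 7.89 points in Gjb2-35delG ESCs (3.997 to 11.7). The order of Gjb2-35delG ESCs and MEF depended on bounds and averaging. As means over windows, from 1000 bp upstream to 500 bp downstream the levels were 51.5% in Gjb2-35delG ESCs and 55.3% in MEF, and to 3000 bp downstream 49.1% in Gjb2-35delG ESCs and 53.1% in MEF. Pooled over calls, the same bounds left Gjb2-35delG ESCs above MEF, by 3.22 points (Newcombe interval -2.19 to 8.59) and by 3.03 points (-0.433 to 6.49), with both intervals including 0. Actin-RFP ESCs were below MEF with each of these bounds.

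The 10 windows run from upstream into the transcript. The outermost, chr7:143296801-143297000, was at 26.7% in Actin-RFP ESCs (19 calls), 60% in Gjb2-35delG ESCs (10 calls) and 45.8% in MEF (14 calls). Next, chr7:143296601-143296800 was at 28.2% in Actin-RFP ESCs, 47.6% in Gjb2-35delG ESCs and 35.5% in MEF. The window over the start, chr7:143296401-143296600, was the best covered part of the sequence printed above, with 26.9% in Actin-RFP ESCs (369 calls), 40.3% in Gjb2-35delG ESCs (252 calls) and 42.2% in MEF (161 calls). Up to the start, then, Actin-RFP ESCs stayed at 26.7% to 28.2% and the other libraries lay above them. Within the transcript, chr7:143296201-143296400 was at 29.5% in Actin-RFP ESCs, 42.8% in Gjb2-35delG ESCs and 39.9% in MEF. The window chr7:143296001-143296200 was at 22.5%, 59.9% and 38.8% in Actin-RFP ESCs, Gjb2-35delG ESCs and MEF. The window chr7:143295801-143296000 was the only one in which Actin-RFP ESCs were above MEF, at 36%, with 49.95% in Gjb2-35delG ESCs and 33.2% in MEF. Further in, chr7:143295601-143295800 was at 34.1% in Actin-RFP ESCs, 46.7% in Gjb2-35delG ESCs and 51% in MEF. The libraries were farthest apart at chr7:143295401-143295600, with 12.8% in Actin-RFP ESCs (153 calls), 70.7% in Gjb2-35delG ESCs (187 calls) and 59.0% in MEF (196 calls). The window chr7:143295201-143295400 was at 33.7% in Actin-RFP ESCs, 74.6% in Gjb2-35delG ESCs and 48.9% in MEF, and chr7:143295001-143295200 was at 33.6%, 47.4% and 53.2%. Actin-RFP ESCs were the lowest library in 9 of the 10 windows. They also had the lowest genome mean, and the genome share of such windows is not given here. The count is therefore not read as particular to the promoter.

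**Figure D5:**
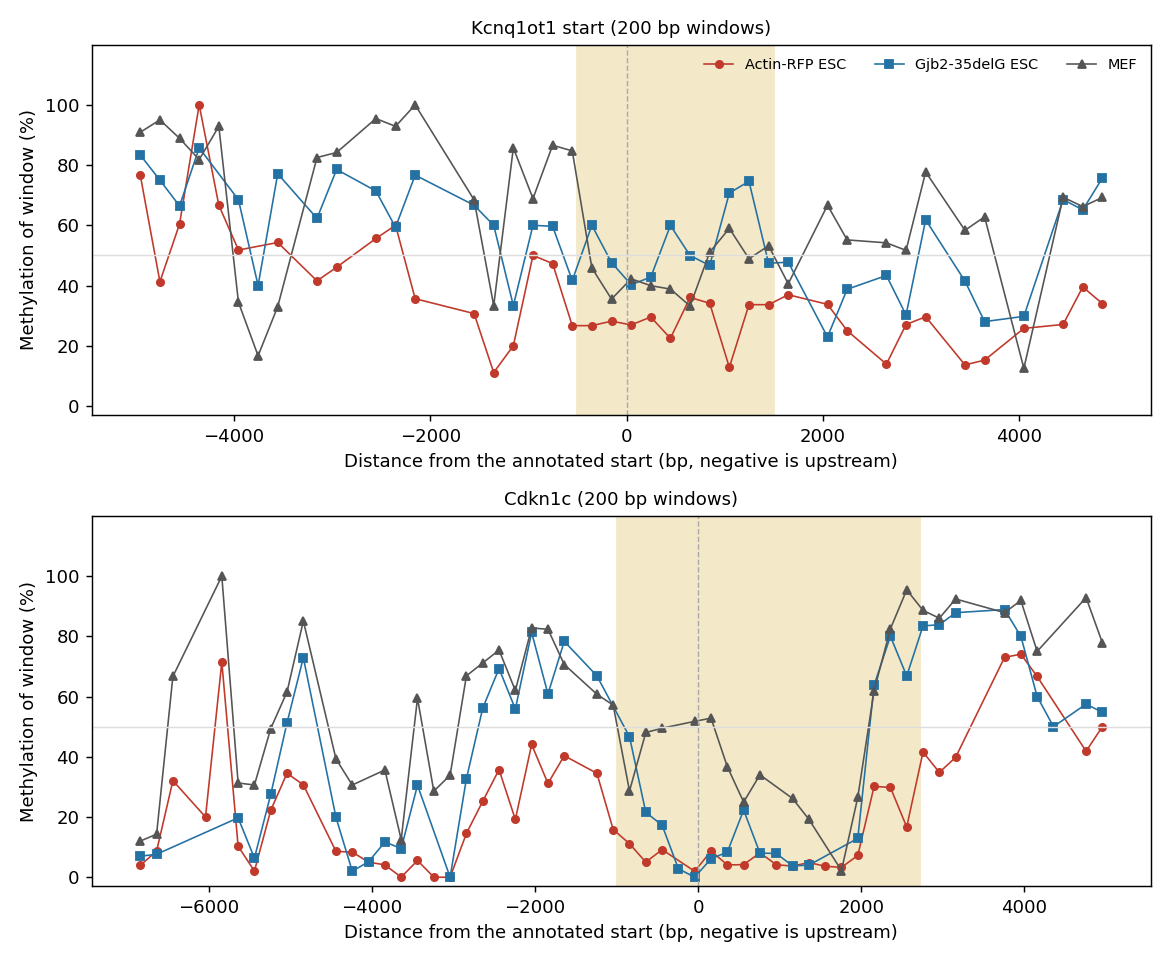
Methylation (%, vertical axes) of each window of 200 bp around the Kcnq1ot1 start (upper plot) and Cdkn1c (lower plot), against the distance from the annotated start in bp (dashed line), in Actin-RFP ESCs (red), Gjb2-35delG ESCs (blue) and MEF (grey). Shading marks the Kcnq1ot1 promoter and Cdkn1c with its 1000 bp upstream, and lines join covered windows across gaps. In the Kcnq1ot1 shading the blue line crosses that of MEF. The red line lies below both there in 9 of 10 windows, a count without a genome share. At the Cdkn1c start both ESC lines lie far below MEF.

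Intermediate windows numbered 1 of 10 in Actin-RFP ESCs, 8 in Gjb2-35delG ESCs and 9 in MEF, where genome shares were 47.4%, 27.4% and 12.6%. Of the 9 in MEF, 0 were intermediate in Actin-RFP ESCs (genome share 31.3%), where all 9 were below 35% (genome share 65.7%). In Gjb2-35delG ESCs 7 of the 9 were intermediate, where the genome share was 42.6%, and the other 2 were above 65% (genome share 42.7%). Relative to the rest of the domain, the promoter was 11.7 points lower in Actin-RFP ESCs, 11.9 points lower in Gjb2-35delG ESCs and 31 points lower in MEF. The promoter thus stood out less from its surroundings in both ESC lines than in MEF.

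The flanks differed on the 2 sides. The 10 kb upstream of the promoter were at 46.3% in Actin-RFP ESCs, 69.8% in Gjb2-35delG ESCs and 76.9% in MEF. The 10 kb downstream, within the transcript, were at 27.3% in Actin-RFP ESCs, 51% in Gjb2-35delG ESCs and 71.1% in MEF. In both ESC lines the downstream flank was therefore within 5 points of the promoter itself, whereas in MEF it was above the promoter, at 71.1% against 44.8%. The whole Kcnq1ot1 gene beyond the promoter was at 39.4% in Actin-RFP ESCs, 68.8% in Gjb2-35delG ESCs and 83.2% in MEF.

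Cdkn1c, a maternally expressed inhibitor of cyclin-dependent kinases that Kcnq1ot1 silences in cis on the paternal copy, was the locus with the lowest level in Actin-RFP ESCs. From 1000 bp upstream to the end of the gene (chr7:143458339-143462059, 14 of 18 windows covered in all) the mean was 10.3% ± 9.1 in Actin-RFP ESCs, 25.8% ± 26.9 in Gjb2-35delG ESCs and 45.6% ± 22.5 in MEF (SD between windows). Pooled over calls, the level was 10.3% in Actin-RFP ESCs (Wilson interval 8.91% to 11.9%), 23.5% in Gjb2-35delG ESCs (20.8% to 26.5%) and 39.8% in MEF (37.1% to 42.5%). The pooled difference from MEF was -29.5 points in Actin-RFP ESCs (Newcombe interval -32.6 to -26.4) and -16.3 points in Gjb2-35delG ESCs (-20.2 to -12.3).

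Around the start both ESC lines lay well below MEF as means over windows. From 1000 bp upstream to 500 bp downstream (6 windows) the mean was 6.67% in Actin-RFP ESCs, 16.7% in Gjb2-35delG ESCs and 44.6% in MEF. In the farthest upstream of these windows, chr7:143461801-143462000, Gjb2-35delG ESCs were above MEF. They were at 46.7% (21 calls) there, and MEF was at 28.6% (26 calls). In the window of the start, chr7:143461001-143461200, methylation was 1.96% in Actin-RFP ESCs (140 calls), 0% in Gjb2-35delG ESCs (25 calls) and 51.8% in MEF (67 calls). The next window into the gene, chr7:143460801-143461000, was at 8.68% in Actin-RFP ESCs (166 calls), 6.13% in Gjb2-35delG ESCs (129 calls) and 52.8% in MEF (149 calls). Both ESC lines were thus nearly unmethylated where MEF were near 50%. Among the windows of the gene covered in all 3 libraries, MEF had their lowest level, 19.2%, at chr7:143459601-143459800, where Actin-RFP ESCs were at 4.87% and Gjb2-35delG ESCs at 4%. Towards the end of the gene Gjb2-35delG ESCs and MEF were close in part of the windows, but not in the last, chr7:143458401-143458600. At chr7:143458601-143458800 methylation was 29.8% in Actin-RFP ESCs, 80.0% in Gjb2-35delG ESCs and 82.5% in MEF. The highest MEF window, chr7:143458401-143458600, was at 16.7% in Actin-RFP ESCs, 66.8% in Gjb2-35delG ESCs and 95.5% in MEF, and the highest Actin-RFP window, chr7:143458801-143459000, was at 30.2%, 63.8% and 62.0%. The widest gap between Actin-RFP ESCs and MEF thus lay at this end of the gene. It rests on chr7:143458401-143458600, with 2 covered cytosines and 19 calls in each of these libraries. The widest gap between Gjb2-35delG ESCs and MEF lay at the start.

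Windows below 20% numbered 12 of 14 in Actin-RFP ESCs, 8 in Gjb2-35delG ESCs and 1 in MEF, where genome shares were 18.7%, 4.2% and 2.34%. Of the 6 windows that were intermediate in MEF, 0 were intermediate in Actin-RFP ESCs (genome share 31.3%) and 1 in Gjb2-35delG ESCs (genome share 42.6%). All 6 were below 35% in Actin-RFP ESCs, where the genome share was 65.7%, and 5 were in Gjb2-35delG ESCs, where it was 14.7%. Coverage was uneven here too: of the 323 CpG cytosines that at least 1 library reached, Actin-RFP ESCs covered 85.4%, Gjb2-35delG ESCs 53.6% and MEF 60.7%. Relative to the rest of the domain, Cdkn1c was 29.7 points lower in Actin-RFP ESCs, 40.1 points lower in Gjb2-35delG ESCs and 30.1 points lower in MEF. The 10 kb upstream of these windows were at 26.5% in Actin-RFP ESCs, 46% in Gjb2-35delG ESCs and 59.3% in MEF, and the 10 kb downstream of the gene at 40.3%, 71.6% and 81.7%. The low levels of Gjb2-35delG ESCs ended within the gene, at the 3 windows of chr7:143458401-143459000. On the upstream side, Gjb2-35delG ESCs were already at 46.7% in the last window of the region, chr7:143461801-143462000. The next window covered in all 3 libraries, chr7:143462201-143462400, was at 34.5% in Actin-RFP ESCs, 66.9% in Gjb2-35delG ESCs and 60.8% in MEF. A separate dip lay further upstream, over the noncoding RNA gene Gm33663, where the window chr7:143464001-143464200 was at 0% in both ESC lines and 33.9% in MEF.

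The 4 loci gave no common answer on levels near 50%. In Actin-RFP ESCs all 4 were below MEF, with 28.3% upstream of H19, 22.8% at Igf2, 28.4% at the Kcnq1ot1 promoter and 10.3% at Cdkn1c, and all 4 were below the rest of their own domain. As ratios to MEF, these means were 0.65 upstream of H19, 0.689 at Igf2, 0.634 at the Kcnq1ot1 promoter and 0.227 at Cdkn1c. The same ratio was 0.529 in the rest of the domain and 0.486 in the rest of the genome. Only Cdkn1c was thus lower relative to MEF than its surroundings. In Gjb2-35delG ESCs the Kcnq1ot1 promoter (54%, with the bounds first given) and Igf2 (41.4%) were above MEF, while H19 upstream (20.0%) and Cdkn1c (25.8%) were below it. In MEF the means were 43.4% upstream of H19, 33.2% at Igf2, 44.8% at the Kcnq1ot1 promoter and 45.6% at Cdkn1c. As the plot of levels by locus shows, the rest of the domain in Actin-RFP ESCs (40.1%) was nearer to 50% than any of the 4 loci.

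Runs of at least 5 adjacent intermediate windows gave a view of the domain that did not start from named places. Actin-RFP ESCs had 43 runs, Gjb2-35delG ESCs 3 and MEF 5. Per 1000 covered windows these were 12.8 runs in Actin-RFP ESCs, 0.916 in Gjb2-35delG ESCs and 1.52 in MEF, where the genome had 11.8, 1.28 and 0.244. Of the 5 in MEF, 1 lay upstream of H19 at chr7:142581001-142582200 (6 windows), 1 in the H19 gene at chr7:142576001-142577000, 2 in the first part of Kcnq1ot1 at chr7:143294801-143295800 and chr7:143296001-143297000, and 1 further inside Kcnq1, a potassium channel gene, at chr7:143333001-143334000. The MEF run upstream of H19 averaged 24.4% in Actin-RFP ESCs, 16.1% in Gjb2-35delG ESCs and 49.8% in MEF. In Gjb2-35delG ESCs the longest run, 10 windows at chr7:143295601-143297600, lay over the Kcnq1ot1 start and averaged 32.8% in Actin-RFP ESCs, 50.9% in Gjb2-35delG ESCs and 52.7% in MEF. The other 2 lay in Cd81 and Trpm5. In Actin-RFP ESCs the longest run, 10 windows at chr7:143442401-143444400 between Kcnq1 and Cdkn1c, averaged 48.7%, where Gjb2-35delG ESCs were at 77.6% and MEF at 79.5%. None of the 43 runs lay in the stretch 2000 to 4000 bp upstream of H19 or at the Kcnq1ot1 promoter.

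Of 29 genes annotated in the domain, 22 had a start with covered windows, with Igf2 counted by its outermost start. Medians over the 22 were 31.2% in Actin-RFP ESCs, 52.9% in Gjb2-35delG ESCs and 56.1% in MEF. Actin-RFP ESCs were below MEF at 21 of the 22 starts and Gjb2-35delG ESCs at 19, and Actin-RFP ESCs were below Gjb2-35delG ESCs at all 22. Windows of the rest of the genome had the same order, with means of 38.5%, 67.6% and 79.1%. Counts over all gene starts of the genome are not given here, so these counts are not read as particular to the domain. Among the genes that Kcnq1ot1 silences in the mouse, Ascl2, a transcription factor of the trophoblast, was at 12.1% in Actin-RFP ESCs, 18.4% in Gjb2-35delG ESCs and 25.4% in MEF, and Phlda2 at 2.55%, 4.32% and 11.9%. Slc22a18, a transporter gene of the same group, was at 38%, 40.9% and 68.6%, and Kcnq1 at 30.3%, 49.4% and 55.3%. The starts of Tssc4, at 3.40%, 4.89% and 17.6%, and of Cd81, a tetraspanin gene, at 7.71%, 12.3% and 15.4%, were low in all 3 libraries. Trpm5, an ion channel gene, was at 24.1%, 35.9% and 38.7%, and Th, which encodes the enzyme that makes the precursor of dopamine, was at 36.8%, 70.1% and 76.7%. All 8 starts were lower in both ESC lines than in MEF, and apart from Th in Gjb2-35delG ESCs and MEF they lay below the domain mean of the same library.

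Expression of the same genes was available in 55 RFP cells and 40 GFP cells of E4.0 blastocysts. In the design of the study RFP marks cells of the injected ESC line and GFP cells of the host embryo, so this is a readout of other cells than the bisulfite libraries. The cells are not assigned to embryos, so each group counted as 1 sample and no test was run. Of the 29 genes, 10 were analysed, out of 13927 genes listed. Cdkn1c was low in both groups, with 6.99 CPM in RFP cells (exact Poisson interval 6.70 to 7.29) and reads in 14 of 55, and 7.69 CPM in GFP cells (7.33 to 8.07) and reads in 9 of 40. Without the cell that held the most reads in each group, Cdkn1c was at 5.23 CPM in RFP cells and 5.33 CPM in GFP cells. Igf2 had 0 reads in RFP cells, which allows up to 0.00964 CPM (3 reads), and 0.286 CPM in GFP cells, with reads in 2 and 93.8% of them in 1 cell. Tspan32 had 0 reads in RFP cells and 0.886 CPM in GFP cells, all from 1 cell.

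Cd81 was at 768 CPM in RFP cells (53 of 55 with a read) and 184 CPM in GFP cells (37 of 40). Phlda2 was at 112 CPM in RFP cells and 18.1 CPM in GFP cells, and at 70.8 and 13.02 CPM without the cell that held the most reads in each group. Ascl2 was at 7.79 CPM in RFP cells and 1.57 CPM in GFP cells, with reads in 10 and 3 cells, and of its reads in GFP cells 89.5% came from 1 cell. Without the cell with the most reads in each group, Ascl2 was at 5.49 CPM in RFP cells and 0.172 CPM in GFP cells. These 3 were higher in RFP cells and the next 2 were lower. Tssc4 was at 16.1 CPM in RFP cells and 31.7 CPM in GFP cells, and Slc22a18 at 3.66 and 4.94 CPM, with reads in 5 and 4 cells, or 2.24 and 3.12 CPM without the top cell of each group. Nap1l4, a histone chaperone gene at the edge of the domain, was at 197 CPM in RFP cells and 125 CPM in GFP cells. Mrpl23, a mitochondrial ribosomal protein gene at the other edge, was at 117 CPM in RFP cells and 234 CPM in GFP cells. The groups also differed in lineage: 3 of 4 epiblast markers listed were higher in RFP cells, and 0 of 4 trophectoderm and 0 of 5 primitive endoderm markers were, so origin and lineage cannot be told apart in these values.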

How the data were processed

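In the study's design text, DNA was sheared, made single-stranded, treated with bisulfite and ligated to adapters. Bisulfite does not separate methylated from hydroxymethylated cytosine. How reads were aligned and called is not stated in the sources used here. For each window of 200 bp the authors deposited a methylation fraction averaged over its CpGs, the counts of methylated and unmethylated calls, and a number of covered CpG cytosines on both strands, a unit of its own kind ("other"). The last reading was checked against promoter sequences: in 97.1% of 13967 windows the number was at most that of the CpG cytosines of both strands. In 9138 of these windows it exceeded the number of CpGs on 1 strand by more than 1. Every covered window has at least 5 calls per cytosine. The deposited single-cell expression values are a signal, read counts divided by 1 factor per cell by the authors, and 100% gave whole reads within 0.01 when divided by the step of their cell. The build mm10 comes from the submitters' processing notes. For the expression data these list, without a role, DESeq2 1.30.0, StringTie 2.0, featureCounts 2.0.0 and STAR 2.7.3a.

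Fractions were averaged over windows covered in all 3 libraries, each weighing the same, and a window belongs to a region by its centre. Calls pooled over a region have 95% Wilson intervals. These include counting error alone, since calls on 1 read or from PCR copies are not independent. Gene positions and promoter sequences came from RefSeq tables of GRCm38.p6; the strand of H19 was taken from its microRNA Mir675 and those of Ins2, Kcnq1 and Cdkn1c are textbook knowledge. Reads of single cells were summed per group and scaled to CPM. Neither kind of data has more than 1 sample per group, so no test and no count model was run. Named genes and windows followed a list of the known genes of the domain, every window upstream of H19 and at the Kcnq1ot1 promoter, and the highest and lowest windows elsewhere, except Esrrb and the other label checks, and Mrpl23, Gm33663 and windows at Igf2 and Cdkn1c picked after their values were seen. The members, lists and thresholds were chosen with earlier results of these data known. Search for runs of intermediate windows was tested on simulated calls with MEF coverage and a planted intermediate stretch in a highly methylated background. The Actin-RFP library is unlike that background, so the test says nothing about its runs. Alternatives covered a minimum of 20 calls, pooled calls, all windows of a library, other bounds, other intermediate ranges and CpG-rich windows. Python 3.11.15, numpy 2.4.6, pandas 2.3.3, scipy 1.17.1 and matplotlib 3.10.9 were used.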

Additional observations from a re-analysis of the deposited data

How the results depend on the processing

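Of the 84 alternative values computed for levels and shares, 38 moved by less than the binomial interval of the main value and 46 moved further; those 46 follow, and none had a test. With windows of at least 20 calls in each library, Igf2 was at 20.1%, 32.7% and 28.1% in Actin-RFP ESCs, Gjb2-35delG ESCs and MEF, Cdkn1c at 22.7% in Gjb2-35delG ESCs and 41.8% in MEF, the domain at 64.8% in Gjb2-35delG ESCs, and the share of intermediate domain windows at 51.8%, 25.4% and 15.3%. Only 23 of 53 Igf2 windows passed that minimum. With pooled calls, Igf2 was at 19.7%, 33.5% and 26.9%, Cdkn1c at 39.8% in MEF, and the domain at 38.2%, 63.2% and 72.8%. With all windows covered in a library, MEF was at 31.1% at Igf2, 42.7% at Cdkn1c and 74.3% over the domain. With other bounds, the stretch 1000 to 5000 bp upstream of H19 was at 34.8%, 37.9% and 53.6%. There Gjb2-35delG ESCs lay above Actin-RFP ESCs as means over windows and below them when pooled over calls (34.35% in Actin-RFP ESCs and 29.5% in Gjb2-35delG ESCs). Igf2 around its outermost start was at 76.5%, 89.8% and 87.3%, from its innermost start to its end at 28.2%, 53.4% and 45%, and between the outermost and innermost starts at 18%, 30.7% and 22.6%, the last 2 chosen after seeing the data. The Kcnq1ot1 promoter from 1000 bp upstream to 500 bp downstream was at 32.2% in Actin-RFP ESCs and 55.3% in MEF, and to 3000 bp downstream at 49.1% in Gjb2-35delG ESCs and 53.1% in MEF. With both of these bounds Gjb2-35delG ESCs were below MEF as means over windows and above MEF when pooled over calls. Around its start Cdkn1c was at 6.67% in Actin-RFP ESCs and 16.7% in Gjb2-35delG ESCs. In domain windows with at least 10 covered cytosines, which stands for 5 CpGs, the means were 34.2%, 53.2% and 54.4%. The share of intermediate domain windows was 34.6%, 18.6% and 11% at 40 to 60% and 62.5%, 41.6% and 23.8% at 30 to 70%. The cause of these shifts was not tested. Without the cell with the most reads of a gene, chosen after seeing the data, 9 of the 10 genes analysed kept their direction between RFP and GFP cells, and Tspan32 had no read left in either group. No paired analysis was possible because each group has 1 library and the comparisons rest on no test. Leaving out a replicate was likewise not possible.

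Depth limits the loci most in Gjb2-35delG ESCs upstream of H19, with 5.77 calls per covered cytosine and 39 of 120 cytosines. Intervals say nothing of the spread between cultures, and a level cannot be assigned to a parental copy.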

Other observations

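In domain windows with at least 10 covered cytosines in MEF, methylation averaged 35.5% in Actin-RFP ESCs, 54.8% in Gjb2-35delG ESCs and 57.2% in MEF, while in the genome such windows averaged 38.3%, 61.0% and 72.6%. The CpG-rich windows of the domain were thus lower than those of the genome in each library, and the gap was widest in MEF.

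The sequence between the H19 stretch and Igf2, chr7:142582147-142650767, was at 44.1% in Actin-RFP ESCs, 70.8% in Gjb2-35delG ESCs and 79.2% in MEF over 225 windows, close to the genome mean of MEF. The start of Tspan32 was at 32.2% in Actin-RFP ESCs, 55.2% in Gjb2-35delG ESCs and 84.7% in MEF, the start of Ins2 at 42.6%, 62.3% and 67.5%, and the start of H19 at 43.1%, 54.4% and 56.9%. In Actin-RFP ESCs a run of 7 intermediate windows lay in the H19 gene, chr7:142576601-142578000, with 49.7% in Actin-RFP ESCs, 74.7% in Gjb2-35delG ESCs and 57.1% in MEF.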
